A study of Mus musculus with 3 samples.

Results

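Of the 52938 regions obtained by merging the H3K27ac peaks of 3 MIN6 libraries, 9107 were distal regions called in the wild-type library only, and these are the members described here. MIN6 cells come from a mouse insulinoma and secrete insulin. The members were chosen by presence in the peak lists: a peak in the wild-type list, no overlapping peak in either knockout list, no knockout peak within 1 kb, and more than 1 kb to both ends of every protein-coding gene. They made up 35.6% of the 25585 distal regions with a wild-type peak. Absence from the knockout lists was part of the choice, so it is given as a description and with no test.

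The libraries came from a clone labelled homozygous ARID1A KO and a clone labelled heterozygous ARID1A KO, and a clone labelled wild type. All 3 are single clones picked from MIN6 cells that stably expressed Cas9 and had been infected with a lentivirus carrying 1 sgRNA against Arid1a, under blasticidin and puromycin selection, so the wild-type clone went through the same steps. Genotypes were assigned by PCR and by Western blotting for ARID1A. Each genotype had 1 library, so a difference between genotypes is also a difference between clones, and no value below carries a p-value. The names of wild-type peaks contain the tag GAL4, which no source used here explains.

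H3K27ac is the acetylation of lysine 27 of histone H3, which marks active promoters and enhancers and is deposited mainly by p300 and CBP. Distal acetylated regions are often enhancers, which act on genes over a distance and differ more between cell types than promoters do. ARID1A belongs to the BAF form of SWI/SNF, a remodeller that moves or evicts nucleosomes and is known to act at many enhancers; it binds DNA without a strict sequence preference.

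The deposited files hold positions and no bases, so the sequences shown are those that RefSeq gives for features that overlap members, in part or whole. The sgRNA is shown because all 3 clones received it; its last bases, the PAM next to the target, are in capitals.
Arid1a sgRNA: gctgctgctgatacgaaggtTGG

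Among 1005 microRNA hairpins of RefSeq (GRCm38.p6), 6 overlapped a member. The mature microRNAs of 2 brain-enriched families, miR-9 and miR-137, are shown because their hairpins are the best known of the 6, with the seed (bases 2 to 8) in capitals. The strand-opposite miR-9b is shown because it lies over Mir9-1 and its seeds differ.
mmu-miR-9-5p: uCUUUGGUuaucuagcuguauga
mmu-miR-9-3p: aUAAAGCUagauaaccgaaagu
mmu-miR-9b-5p: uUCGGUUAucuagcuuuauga
mmu-miR-9b-3p: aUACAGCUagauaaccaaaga
mmu-miR-137-5p: aCGGGUAUucuuggguggauaau
mmu-miR-137-3p: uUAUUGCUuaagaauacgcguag

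The Mir9-1 hairpin lay with Mir3093 and Gm25641, the gene of miR-9b, inside a single member at chr3:88215140-88216048 (mm10), with a fold enrichment of 6.59 in the wild-type list. The nearest peak was 36562 bp away in the homozygous list and 36596 bp away in the heterozygous list. The Mir137 hairpin was touched only at its edge by a member at chr3:118433526-118433859 with a fold of 4.28, which ends before both mature sequences; the homozygous list had a peak 2833 bp from this member and the heterozygous list none nearer than 564152 bp. The remaining hairpins were Mir6380 and Mir6540. For contrast, and chosen after the values were seen, the hairpin of Mir375, the microRNA best known from islets, was overlapped by a peak in all 3 lists. Mir9-3 was also under a peak in all 3, whereas Mir9-2 was under a peak of the heterozygous list only.

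A window from 250 bases before to 50 after a RefSeq transcript start overlapped 165 of the 9107 members (1.81%; Wilson 95% interval 1.56 to 2.11). The rule removed the outer ends of protein-coding genes, so the 167 windows were those of lncRNAs (103) and of internal or alternative starts of coding genes (64). The windows below are those with the highest −log10 q of their member among windows with at least 150 bases inside it, 3 lncRNAs and then 3 coding genes, followed by Prlr, the prolactin receptor gene, whose member begins at the start site and holds 44 bases of the window. CpG dinucleotides are in capitals, and each sequence runs 5′ to 3′ on the strand of the transcript.
6430584L05Rik, chr6:55396637-55396936, plus strand: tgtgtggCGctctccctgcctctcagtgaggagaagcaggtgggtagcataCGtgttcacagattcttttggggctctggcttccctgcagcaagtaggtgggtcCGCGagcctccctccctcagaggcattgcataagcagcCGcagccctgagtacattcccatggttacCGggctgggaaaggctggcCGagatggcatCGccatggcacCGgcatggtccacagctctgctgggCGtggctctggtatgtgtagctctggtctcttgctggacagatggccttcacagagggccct
Cdr1os, chrX:61116128-61116427, plus strand: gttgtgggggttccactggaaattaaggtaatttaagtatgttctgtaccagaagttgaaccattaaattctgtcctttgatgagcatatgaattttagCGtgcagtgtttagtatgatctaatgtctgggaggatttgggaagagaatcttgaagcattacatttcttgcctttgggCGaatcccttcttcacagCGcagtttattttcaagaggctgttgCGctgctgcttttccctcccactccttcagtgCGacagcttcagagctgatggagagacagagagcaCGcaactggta
Gm16702, chr17:8389419-8389718, minus strand: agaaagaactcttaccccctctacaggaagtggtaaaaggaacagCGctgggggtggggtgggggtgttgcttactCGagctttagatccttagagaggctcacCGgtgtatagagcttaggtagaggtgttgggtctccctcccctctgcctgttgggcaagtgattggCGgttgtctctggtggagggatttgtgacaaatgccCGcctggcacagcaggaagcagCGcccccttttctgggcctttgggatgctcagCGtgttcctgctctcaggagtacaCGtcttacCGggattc
Pde10a, chr17:8801495-8801794, plus strand: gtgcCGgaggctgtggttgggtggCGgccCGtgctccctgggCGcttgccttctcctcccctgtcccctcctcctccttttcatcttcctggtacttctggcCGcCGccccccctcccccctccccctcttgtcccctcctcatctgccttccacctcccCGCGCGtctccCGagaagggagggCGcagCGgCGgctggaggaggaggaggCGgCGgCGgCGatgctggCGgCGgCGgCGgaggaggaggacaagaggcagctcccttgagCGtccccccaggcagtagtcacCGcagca
Tceal3, chrX:136666361-136666660, plus strand: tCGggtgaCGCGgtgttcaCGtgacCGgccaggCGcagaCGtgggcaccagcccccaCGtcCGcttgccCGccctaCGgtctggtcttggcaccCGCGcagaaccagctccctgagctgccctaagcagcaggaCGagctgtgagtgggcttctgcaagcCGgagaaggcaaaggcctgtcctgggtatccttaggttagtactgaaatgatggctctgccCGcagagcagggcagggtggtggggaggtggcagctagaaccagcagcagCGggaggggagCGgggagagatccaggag
Apol10b, chr15:77596076-77596375, minus strand: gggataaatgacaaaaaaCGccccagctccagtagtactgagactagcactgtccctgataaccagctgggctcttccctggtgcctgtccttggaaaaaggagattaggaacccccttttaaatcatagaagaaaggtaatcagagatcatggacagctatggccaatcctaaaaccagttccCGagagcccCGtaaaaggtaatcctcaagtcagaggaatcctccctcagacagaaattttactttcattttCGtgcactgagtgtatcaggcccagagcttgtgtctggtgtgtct
Prlr, chr15:10223656-10223955, plus strand: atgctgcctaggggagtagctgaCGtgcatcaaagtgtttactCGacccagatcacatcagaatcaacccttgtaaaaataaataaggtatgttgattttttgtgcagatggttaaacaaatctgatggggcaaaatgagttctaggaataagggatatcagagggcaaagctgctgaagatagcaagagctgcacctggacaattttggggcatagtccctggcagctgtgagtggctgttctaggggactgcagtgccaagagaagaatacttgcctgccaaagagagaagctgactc

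Cdr1os is the lncRNA whose locus gives rise to the circular RNA Cdr1as, which binds miR-7 in neurons and islets. Its start window lay wholly inside the member at chrX:61116089-61116868, which had a fold of 10.7 and a −log10 q of 46.5 in the wild-type list. The nearest peak was 711269 bp away in the homozygous list and 711291 bp away in the heterozygous list. Pde10a, a cyclic nucleotide phosphodiesterase gene, and Tceal3 had 23 and 18 CpG in their windows, against 4 for Apol10b and 2 for Prlr.

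The windows in members were poorer in CpG than those in distal regions called in all 3 libraries. Their median was 7 CpG, against 20 in the regions called in all 3 and 7 over all 32851 windows of the table. Windows in regions called only in the homozygous or only in the heterozygous library by the same rule had medians of 5 and 6. Among coding windows alone the medians were 12, against 22 in the regions called in all 3 and 13 over all coding windows. A start window was also found at fewer members (1.81%) than regions called in all 3 (15.7%), regions missing only from the homozygous list (6.05%) or regions missing only from the heterozygous list (3.36%). Regions called only in the homozygous or only in the heterozygous library by the same rule were close to the members, at 1.35% and 1.76%. Searched on both strands, the AP-1-type letters TGANTCA were present in 9.58% of the members' windows, against 5.93% in the regions called in all 3 and 7.81% over all windows. They were more frequent in the homozygous-only and heterozygous-only regions, at 14.7% and 15.5%, and among lncRNA windows alone they were present in 9.71% of the members' windows, against 8.86% in the regions called in all 3 and 9.31% over all. The forkhead-type letters TGTTTAC were present in 6.59%, against 3.46% and 3.65%, the CRE letters TGACGTCA in 0.599%, against 2.54% and 1.79%, and the E-box letters CANNTG in 82.0%, against 64.0% and 72.3%. In the homozygous-only and heterozygous-only regions TGTTTAC was present in 5.88% and 6.90%, CANNTG in 82.4% and 75.9%, and TGACGTCA in none of 68 and none of 58 windows. A match is a description of these letters and not a bound site.

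The libraries differed in the length of their lists and in depth. The homozygous list held 34298 peaks, the heterozygous list 31365 and the wild-type list 41490, and the lowest background recovered from the peaks, used as a relative depth, was 1.73, 1.73 and 2.17 reads per position. Most beta cell markers had gene-end peaks in each library. Of 20 markers, 16, 15 and 17 had a peak within 1 kb of a gene end in the homozygous, heterozygous and wild-type lists. Ins1, Ins2, Mafa, Nkx6-1 and Iapp were among those with a peak in all 3. G6pc2, Slc2a2 and Ucn3 had none in the wild-type list. Pdx1, Pax6 and Chga had a wild-type peak but not a peak in all 3 lists. Markers of other cells were at lower shares, with gene-end peaks at 1, 2 and 1 of 14 immune and endothelial genes, 3, 4 and 6 of 14 mesenchymal genes and 3, 2 and 4 of 12 alpha cell genes, but at 12, 13 and 14 of 20 neuronal genes, many of which islet cells share.

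Calls in 1 library only were made in each library by the same rule. There were 4832 distal regions in the homozygous library only (24.8% of its distal regions), 3243 in the heterozygous library only (19.7%) and the 9107 members (35.6%). The larger number in wild type moved with the length of the list. With each list cut to its 31365 peaks of highest −log10 q, the counts were 4667 in homozygous only, 4167 in heterozygous only and 4724 in wild type only. With the wild-type library scaled to the lower background and a −log10 p of at least 15 in all lists, an alternative chosen after the data were seen, they were 3636, 1970 and 3140. Depth, clone and genotype cannot be told apart in these counts. Of the distal wild-type regions, 53.7% had no peak in the homozygous list, 57.8% none in the heterozygous list and 42.9% none in either; these shares are the contrast that the rule used.

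Most members were weaker than the median peak of the wild-type list. Fold enrichment and −log10 q are the authors' own values for each peak over its local background and are set side by side only within the same list. The members had a median fold of 5.07 and a median −log10 q of 10.1, against 5.91 and 28.0 for the 8026 distal regions called in all 3. The 2778 regions missing only from the homozygous list had 5.30 and 14.6, and the 3814 missing only from the heterozygous list 5.05 and 13.0. As merged regions, members had a median width of 357 bp, against 790.5 bp in the regions called in all 3. The latter span the joined peaks of all 3 lists, so these widths are not like for like. Homozygous-only and heterozygous-only regions had median widths of 329 and 327 bp. The recovered summit pile-up of members had a median of 26 reads, against 68 in the regions called in all 3. Fold, −log10 q and pile-up are those of the strongest wild-type peak in each region. Each member held exactly 1 wild-type peak.

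Across strengths, members made up 62.1% of distal wild-type regions with a −log10 q under 5, 42.6% of those from 10 to 15, 21.5% of those from 20 to 30 and 3.36% of those from 50 to 100. No region with a −log10 q of 100 or more was a member (0 of 236, with a Wilson upper bound of 1.60%). A −log10 q at or above the median of the wild-type list was reached by 1369 members (15.0%), called the strong members below. Of homozygous-only and heterozygous-only regions, 9.71% and 14.0% reached the median of their own list. At the edges of the rule, the 136 members with a knockout peak 1000 to 1500 bp away had a median fold of 3.77, and the 276 wild-type-only regions at 500 to 1000 bp had 3.56. The 129 members 1000 to 1500 bp from a gene end had a median fold of 4.96, and the 151 regions otherwise alike but at 500 to 1000 bp had 5.04.

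**Figure D1:**
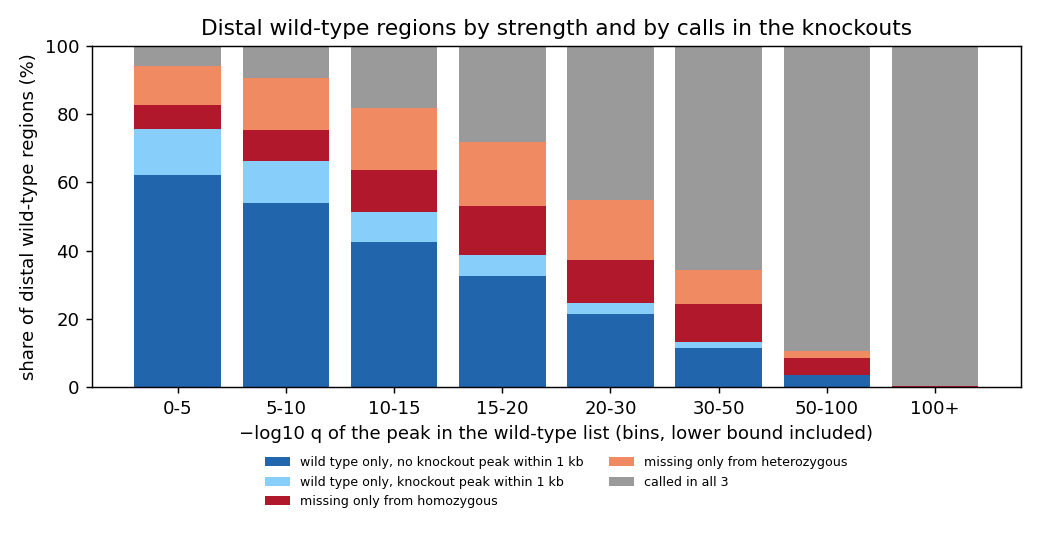
Stacked bars give, for bins of −log10 q in the wild-type list (x axis), the percentage of distal wild-type regions (y axis) in each class of calls; dark blue are the members, light blue are wild-type-only regions with a knockout peak within 1 kb, red and orange are regions missing from 1 knockout list, and grey are regions called in all 3. The members' share was 62.1% in the weakest bin and 0% in the strongest.

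The rule set a minimum distance of 1 kb to a knockout peak, so the distances of members are a description. The median distance to the nearest knockout peak was 21706 bp, and 72.9% of members had none within 10 kb. No such distances are given here for other classes of regions. For 1324 members (14.5%) there was none within 100 kb, and for 130 none within 500 kb. Of the strong members, 73.6% lay beyond 10 kb and 16.9% beyond 100 kb.

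**Figure D2:**
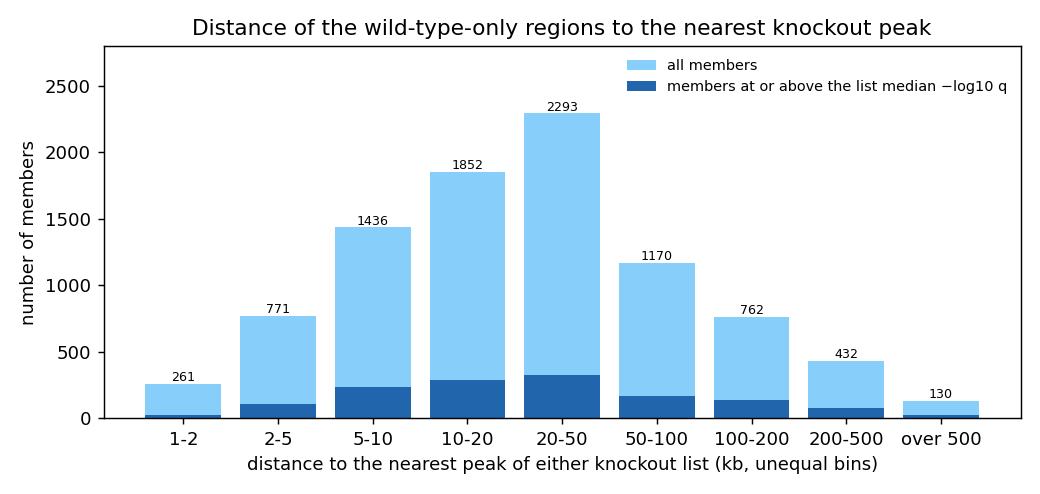
Bars count members (y axis) by distance to the nearest peak of either knockout list in kb (x axis, bins of unequal width); the light bars hold all 9107 members and the dark bars the 1369 strong ones. The bin from 20 to 50 kb held 2293 members, and 130 lay over 500 kb away.

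Members were also seldom next to a region that all 3 libraries shared. Within 10 kb of such a region lay 13.6% of members (12.9 to 14.3), against 30.8% of regions missing only from the homozygous list, 31.4% of those missing only from the heterozygous list and 56.2% of the regions called in all 3. The rule removes regions with a knockout peak within 1 kb. Without regions that had a shared region that close, the shares at 1 to 10 kb were 13.5% for members, against 19.9%, 19.2% and 26.3% for the same classes. Among strong peaks alone they were 13.3%, against 19.1%, 19.0% and 26.8%. By the same rule in the other libraries, 19.2% of homozygous-only and 16.3% of heterozygous-only regions lay within 10 kb of a shared region. Inside protein-coding genes were 56.1% of members (55.1 to 57.1), against 55.3% of the regions called in all 3, 49.6% of those missing only from the homozygous list and 59.6% of those missing only from the heterozygous list. Of homozygous-only and heterozygous-only regions, 56.7% and 45.7% lay inside genes.

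Members occurred on every chromosome. On the autosomes and X they made up from 31.0% of the distal wild-type regions of chromosome 19 to 39.8% of those of chromosome 13, and on Y they were 3 of 30. When members at most 20 kb apart were joined, 3781 stood alone and 190 runs held 4 or more, 861 members in all. No knockout region lay between the ends of 164 of these 190 runs. This follows in part from the rule, because no member has a knockout peak within 1 kb. Runs of homozygous-only or heterozygous-only regions were not set beside them. The run with the most members, at chr4:140180169-140225063, held 9 members inside Igsf21, an immunoglobulin superfamily gene of synaptic adhesion. Runs of 8 lay inside Tnr (chr1:159875487-159924812), at Kctd19 and Lrrc36 (chr8:105406047-105452754), beside Cdh26 (chr2:178508039-178551805) and beside Fam76b (chr9:13898093-13933097). None of these 5 runs held a region of either knockout list, with the same limit.

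Each region was assigned to the protein-coding gene with the nearest end within 100 kb, which does not show that it acts on that gene. This gave 3717 genes at least 1 member and 219 genes 5 or more, while 1923 members had no gene. Of the 20780 distal wild-type regions assigned to a gene, 7184 were members (34.6%), the share against which single genes and lists are read.

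The genes with the most members were Ttc39b with 13, Galnt18 with 12, Septin9 with 12, and Nfatc2, Tnr and Frmd4b with 11 each. Gm30733, Grik3 and Ntrk3 had 10 each. The other genes among the first 20 had 9 each: Cacna1e, St6gal1, Sobp, Igsf21, Nrp2, Cdkal1, Oxr1, Btbd9, Arid5b, Sc5d and Mgat5b. These counts shrank with the stricter wild-type list: with a −log10 q of at least 10 there, Galnt18 had 7, Ttc39b 7, Nfatc2 9 and Ntrk3 4.

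Nfatc2 and Tnr had no region at all in either knockout list. Nfatc2 encodes a transcription factor that calcineurin activates in response to calcium, and NFAT factors are known in beta cells for driving genes of growth and function. It had 0 regions in the homozygous, 0 in the heterozygous and 12 in the wild-type list; 11 were members, from chr2:168473037 to 168589696, and the other was a weak gene-end peak with a −log10 q of 4.97. The strongest were chr2:168480159-168480835, inside the gene, with a fold of 9.73 and a −log10 q of 65.8, and chr2:168473037-168473626, 2783 bp outside it, with a fold of 13.2. No knockout peak lay nearer than 151203 bp to any of the 11.

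Tnr encodes tenascin-R, an extracellular matrix protein of the nervous system. It had 0 regions in the homozygous, 0 in the heterozygous and 12 in the wild-type list, 11 of them members with folds between 4.47 and 7.50. Its strongest member, chr1:159900320-159901209, had a −log10 q of 28.9 and no knockout peak nearer than 294032 bp. Tnr is long, and with regions given first to the gene that contains them it had 14 members.

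St6gal1, which encodes the enzyme that adds α2,6-linked sialic acid to glycoproteins, had 0, 0 and 10 regions in the homozygous, heterozygous and wild-type lists, 9 of them members and 5 of them strong. Sobp had 1, 4 and 12 regions, and Grik3, a kainate receptor subunit, 1, 1 and 12. Its member at chr4:125658049-125658577 had a fold of 12.9 and no knockout peak nearer than 153555 bp. Cacna1e, the R-type calcium channel of beta cells and neurons, had 1, 0 and 9 regions. Its members fell into 1 group inside the gene and 1 outside it, with the outer group led by chr1:154956105-154956567 with a −log10 q of 57.0. All of its members lay 67239 to 97176 bp from a gene end. With genes assigned within 50 kb, Cacna1e had 0 members.

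At other genes with many members the knockout lists held regions too. Ttc39b had 4, 6 and 20 regions in the homozygous, heterozygous and wild-type lists, Septin9 8, 10 and 23, and Igsf21 9, 8 and 18. Ntrk3, the neurotrophin-3 receptor, had 10, 0 and 19, and Nrp2, a co-receptor for semaphorins and VEGF, 4, 0 and 15. Frmd4b had 4, 10 and 21, and Mgat5b 0, 2 and 10, so the number of regions at these genes also differed between the 2 knockout lists.

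**Figure D3:**
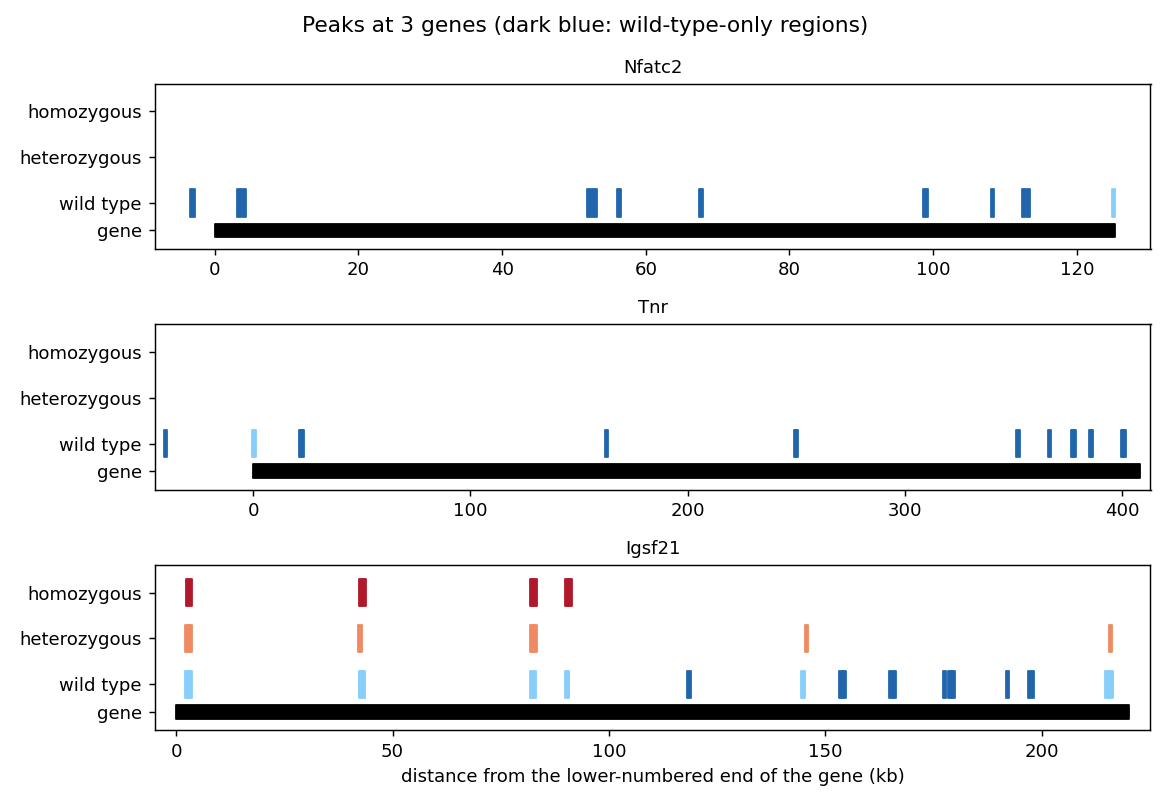
Peaks of the homozygous (red), heterozygous (orange) and wild-type (blue) lists at Nfatc2, Tnr and Igsf21, in kb from the lower-numbered end of each gene (x axis, black bar for the gene, narrow peaks widened to be visible); dark blue marks members. The homozygous and heterozygous tracks are empty at Nfatc2 and Tnr, and at Igsf21 the run of members lies between 2 peaks of the heterozygous track, while the homozygous peaks all lie on its left.

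The member with the highest fold in the wild-type list lay at chr6:130954835-130955183, 15247 bp from LOC115490339, with a fold of 14.6. It was followed by chr11:62745888-62746669 near Zfp286 (14.3) and by chr7:60762382-60763064, with no gene within 100 kb (14.2). Camk1g, a calcium/calmodulin-dependent kinase gene, had a single member, chr1:193382511-193383061, with a fold of 14.1 and a −log10 q of 73.3, and the gene had 3 and 6 regions in the homozygous and heterozygous lists against 7 in wild type. No filter was applied for repeats or copy number, so such peaks can be among these.

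Genes that define the beta cell had few members. List shares here and below were not split by peak strength. The share of members fell with strength, from 62.1% at a −log10 q under 5 to 3.36% at 50 to 100. Whether peak strength accounts for differences between lists was not tested. Of the 72 distal wild-type regions at 20 beta cell markers, 12 were members (16.7%; 9.80 to 26.9), at 6 genes. Slc30a8, the zinc transporter of insulin granules, had 4, all outside the gene and with folds of 4.12 to 5.25, beside 6, 8 and 14 regions in the homozygous, heterozygous and wild-type lists. Pcsk2, a prohormone convertase, had 3, and Isl1, an islet transcription factor, 2. Housekeeping genes had 2 of 14 (14.3%), cell cycle genes 4 of 23 (17.4%), and genes of SWI/SNF subunits 8 of 41 (19.5%), among them Dpf3 with 3. Arid1a itself (chr4:133679008-133756769) had no member and had 6, 4 and 5 regions in the homozygous, heterozygous and wild-type lists, with a gene-end peak in each; acetylation there does not check a small edit.

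Among beta cell transcription factors 31 of 87 regions were members (35.6%), and 20 of 76 (26.3%) without Nfatc2, a split made after its value was seen. Myt1, a zinc finger factor of endocrine cells, had 4. Genes of secretion and glucose sensing had 35 of 134 (26.1%). Here Prlr, the receptor through which prolactin and placental lactogen drive beta cell growth in pregnancy, had 7 members and 1, 1 and 8 regions in the homozygous, heterozygous and wild-type lists. The strongest was the one shown above at chr15:10223912-10224916, with a fold of 5.39, a −log10 q of 28.8 and no knockout peak nearer than 121746 bp. Gjd2, the gap junction protein connexin 36 that couples beta cells, also had 7. Adcy5, an adenylyl cyclase gene, had 6 members and 1, 0 and 9 regions, led by chr16:35139702-35140765 with a fold of 10.2. Ion channel genes had 29 of 78 (37.2%), Cacna1e with 9, all over 50 kb from its ends, and Kcnj6 with 6.

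Of 57 regions at EGF ligands, ErbB receptors and their regulators, 25 were members (43.9%; 31.8 to 56.7), an interval that includes 34.6%. Among ligands, Tgfa, which encodes transforming growth factor α, had 3 members, and these were all of its 3 distal wild-type regions. One of them, chr6:86205726-86207237, had a fold of 8.88 and a −log10 q of 68.3, and the nearest peak was 10042 bp away in the homozygous and 10326 bp away in the heterozygous list. Tgfa had a gene-end peak in all 3 lists. Among regulators, Lrig1, a negative regulator of ErbB receptors, had 5 members of 5 regions, Eps8, an EGF receptor substrate, 7 of 9, and Ptpn11, a phosphatase of the pathway, 3 of 8. Eps8 had 0, 3 and 10 regions in the homozygous, heterozygous and wild-type lists. Downstream, genes of MAPK signalling and the immediate early response had 15 of 70 (21.4%), with Egr2 and Spred2 at 3 each.

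Other receptor tyrosine kinase genes had 30 of 79 (38.0%) and axon guidance and adhesion genes 42 of 110 (38.2%), Cntn1 with 8 beside Nrp2. Kit, the stem cell factor receptor, had 3 members of 3 regions and 0, 4 and 4 regions in all in the homozygous, heterozygous and wild-type lists.

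Among lists of other cell types, mesenchymal, alpha cell and acinar markers had shares above 34.6%. Neuronal, duct, immune and endothelial, and delta, PP and epsilon markers were below it. All of these lists but the neuronal are small, and the alpha cell interval includes 34.6%. Mesenchymal markers had 12 of 19 (63.2%; 41.0 to 80.9), spread over only 3 genes: Zeb2 with 6, Cdh2 with 4 and Zeb1 with 2. Zeb2 encodes a zinc finger repressor known from the epithelial-mesenchymal transition, and its member chr2:44988336-44989021 had a fold of 10.0. The mesenchymal markers Vim, Col1a1, Col1a2, Col3a1, Fn1, Acta2, Pdgfrb and Thy1 had no gene-end peak in the wild-type list. Alpha cell markers had 7 of 13 (53.8%; 29.1 to 76.8), led by Irx1, a homeobox factor, with 3 members of 3 regions and 0, 0 and 4 regions in the homozygous, heterozygous and wild-type lists. Neuronal markers had 16 of 78 (20.5%), islet progenitor genes 9 of 51 (17.6%), genes normally silent in beta cells 8 of 30 (26.7%), duct and keratin markers 3 of 12, immune and endothelial markers 4 of 15, acinar markers 2 of 5, and delta, PP and epsilon markers 1 of 5.

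**Figure D4:**
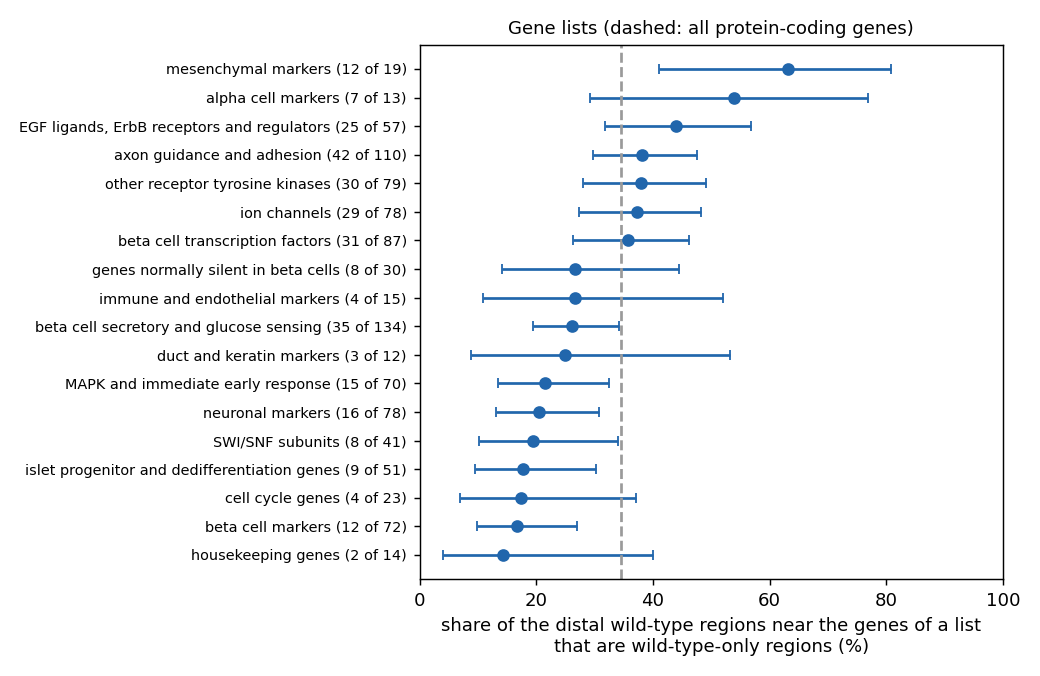
For each gene list (y axis, members of distal wild-type regions in parentheses), the point gives the percentage of distal wild-type regions near its genes that were members and the bar its Wilson 95% interval (x axis); the dashed line is 34.6% for all genes, and lists with under 10 regions are left out. Mesenchymal markers are at 63.2% and beta cell markers at 16.7%. The shares are not split by peak strength.

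Gene ends themselves were outside the rule but belong to the same contrast of the same libraries, so they are described and not tested. A gene-end peak counts as kept where the knockout list has a peak within 1 kb of either end of the same gene. Over all genes with a wild-type gene-end peak, 8.43% had none in the homozygous list and 8.78% none in the heterozygous list. Among the 550 such genes with 3 or more members, a peak was kept at 83.3% in the homozygous list (79.9 to 86.2) and at 84.0% in the heterozygous list (80.7 to 86.8). Genes with 3 or more distal wild-type regions but no member (n = 612) kept 91.2% and 92.0%. By the rule, every distal wild-type region of these genes had a knockout peak overlapping it or within 1 kb. The sets of genes thus differ in knockout calls by choice, and the difference in shares is in part built in.

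The gene ends near many members were weaker in wild type, with a median −log10 q of 43.6 against 54.8 at genes with no member. Split at the median of all gene ends (52.9), the weaker ends of genes with 3 or more members kept 74.2% in the homozygous list (69.4 to 78.5) and 75.4% in the heterozygous list (70.6 to 79.6). The weaker ends of genes with 3 or more distal regions and no member kept 85.8% (81.8 to 89.0) and 86.6% (82.7 to 89.8), at a median −log10 q of 29.4 against 29.8 at the genes with members. Matching the strength of the ends does not remove the choice of these genes by knockout calls. Stronger ends were nearly always kept, at 99.0% in both knockout lists for genes with 3 or more members.

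**Figure D5:**
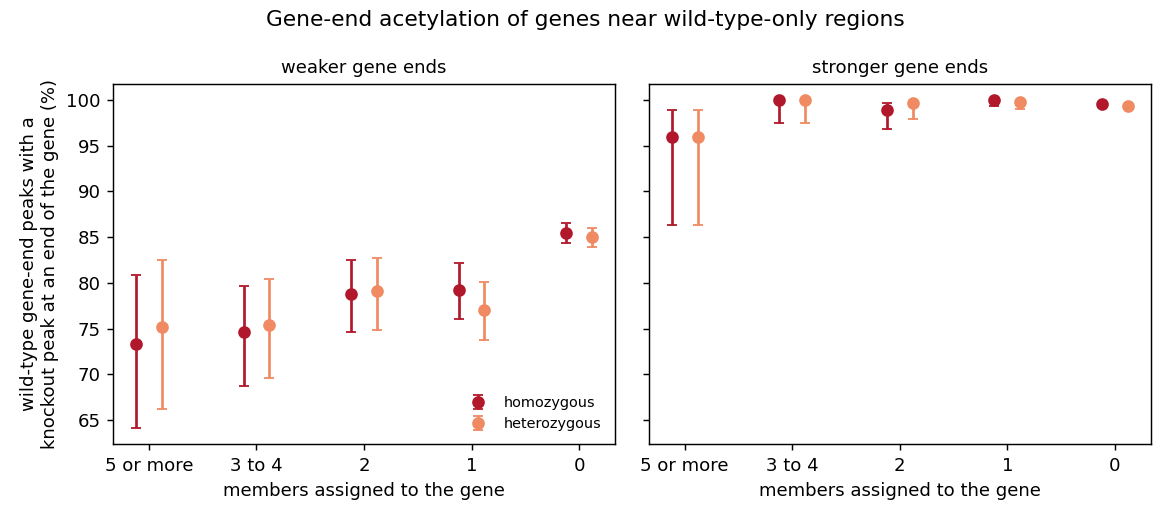
The y axis gives the percentage of genes with a wild-type gene-end peak that also had a gene-end peak in the homozygous (red) or heterozygous (orange) list, by the number of members assigned to the gene (x axis), for ends below (left) and at or above (right) the median −log10 q; bars are Wilson 95% intervals and the y axis starts above 0. Weaker ends were kept at 73.3% and 75.2% for genes with 5 or more members, and at 85.5% and 85.0% for genes with none. The number of members itself depends on calls in the knockout lists.

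Of the 781 genes with 3 or more members, 259 had no other distal wild-type region, and 168 of these had a wild-type gene-end peak. It was kept in the homozygous list at 125 and in the heterozygous list at 126, while 33 genes had a gene-end peak in neither. Over all genes with a wild-type gene-end peak, 8.43% had none in the homozygous list and 8.78% none in the heterozygous list. The share with none in either list is not given here, so the 33 have no direct baseline. Beside Nfatc2, Tnr and St6gal1, the 33 included the phosphodiesterase genes Pde7b, with 7 members, and Pde5a, with 6. They also included the potassium channel gene Kcnk2, with 5, and Dpysl3, a neuronal cytoskeleton regulator, with 5 members of which 4 were strong. Transcription factor genes among the 33 included Barx2, Trp73, Irx1, Foxf2 and Dlx3. Each of these 5 had no region in either knockout list, as had most of the 33. Their wild-type gene-end −log10 q was 9.60, 7.21, 14.5, 29.9 and 9.87 in that order, below the median of 52.9 over all gene ends. The other genes named in this paragraph also had wild-type gene-end peaks below that median.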

How the data were processed

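H3K27ac ChIP-seq of 3 MIN6 clones was available as 1 deposited peak list per library, with 1 library per genotype. Per the submitters' processing notes, the authors used bcl2fastq, MACS2 and genome build mm10; their versions, the aligner, the control and the calling threshold, like the number of reads, were not given in the sources used here. Each deposited list gives for every peak a score, a fold enrichment over local background, −log10 p and −log10 q, all the authors' values. Fold and −log10 q depend on depth, so peak heights were set side by side only within the same list. Across lists these values served to estimate relative depth and, in alternatives, to filter or shorten each list. The deposited score was not used. A pile-up and a background per peak were solved from fold and −log10 p, to within 0.001 of the deposited value.

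Peaks that touched or overlapped by at least 1 bp were merged, and the 52938 regions were identical to those of bedtools 2.31.1. Scripts used Python 3.11.15, numpy 2.4.6, pandas 2.3.3, scipy 1.17.1 and matplotlib 3.10.9, and were tested on simulated peaks. Genes were 21887 protein-coding genes of RefSeq GRCm38.p6, the assembly of mm10, given without exons or UTRs. Of 20 gene lists, all 428 entries matched. The members and lists were chosen with earlier results of these data known. Genes named were the 20 with the most members (ties by summed −log10 q), up to 4 per list with at least 2 members, those nearest the 10 members of highest fold, the 5 runs with the most members and Arid1a; those with no gene-end peak in a knockout, and the starts and microRNAs, were picked after their values were seen. Wilson 95% intervals cover counting error only, not the difference between clones. Alternatives varied the distance limits, the −log10 q minimum, list length, depth scaling, overlap and gene assignment.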

Additional observations from a re-analysis of the deposited data

How the results depend on the processing

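The number of members rested on the wild-type threshold: it was 4581 with a −log10 q of at least 10 in that list, 4724 with lists of equal length and 3140 with the wild-type library scaled and a −log10 p of at least 15 in all lists, a setting added after the data were seen. Their median folds were 5.99, 5.99 and 6.42. The median fold was 4.95 with no distance to a knockout peak required, 5.22 with 5 kb, 5.14 with a −log10 q of at least 5 in all lists, 5.15 with that minimum in the wild-type list, and 5.00 where a knockout peak had to cover at least 50% of the region to count. The share within 10 kb of a region called in all 3 was 19.1% with no distance required, 9.14% with 5 kb to a knockout peak, 11.5% with 5 kb to a gene end, 22.9% under the coverage rule and 11.5% under the added setting, where 55.0% lay inside genes. Gene-end peaks kept in the heterozygous list at genes with 3 or more members were 86.9% with the minimum of 10, against 93.3% over all genes in that setting; in the other settings this share, and that of the homozygous list in every setting, stayed inside the interval given above. Scaling the wild-type library alone to the knockout background gave 9072 members. Of the 69 named genes, 43 moved by more than 1.5 times in member count with the minimum of 10, 42 with equal lists, 58 with the added setting and 33 with genes within 50 kb, against 0 to 10 in each of the others. Of the 20 genes with the most members, 9 were among the first 20, ties included, with equal lists. The number was also 9 with the minimum of 10, with the added setting and with regions given first to the containing gene. It was 11 with genes within 50 kb and 15 to 20 in the others. No paired analysis was possible because each genotype had 1 library and the labels give no replicate numbers; for the same reason no library could be left out. Weak wild-type peaks sit near the calling threshold, and a missing call in a shallower library does not show missing acetylation.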
